A study of Mus musculus with 6 samples.

Results

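The genes examined were 44 genes of autophagy and mitophagy in early differentiated beige adipocytes that overexpressed either of 2 point mutants of PPARγ2. They were chosen by symbol from 56884 genes and fall into 7 mitophagy receptors and regulators of the mitochondrial surface including *Pink1*, 5 soluble cargo adaptors, 30 genes of the core autophagy machinery and the 2 transcription factors *Tfeb* and *Tfe3*. Of these, 43 passed the filter on low values (a TPM of 0.5 or more in 3 or more libraries), as did 15426 genes in all. The remaining gene, *Calcoco2*, which encodes the adaptor NDP52, was listed at 0 in all 3 libraries of one mutant and at 0.0625, 0.157 and 0 TPM in those of the other.

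RNA was sequenced from an immortalized cell line of the stromal vascular fraction (SVF) of mouse subcutaneous white adipose tissue (scWAT), on day 2 of differentiation into beige adipocytes. Both groups carried a retroviral vector for HA-tagged mouse PPARγ2 and were selected with puromycin as stable lines. In PPARγ2 K382Q-overexpressing cells (K382Q cells) the lysine named in the mutant was replaced by glutamine, which mimics acetylation, and in PPARγ2 K382R-overexpressing cells (K382R cells) by arginine, which mimics the deacetylated form. The study used this pair to ask what acetylation at this position does to beige differentiation. Each group had 3 libraries labelled as biological replicates of 1 cell line. The study repeated some experiments with other knockdown lines or passages, but does not say how these libraries were separated. The spread between them may therefore be partly technical. The induction medium of both groups held the PPARγ agonist rosiglitazone (0.5 μM), thyroid hormone T3 (1 nM), insulin (5 μg/mL), dexamethasone (2 μg/mL), indomethacin (125 μM) and isobutylmethylxanthine (500 μM). Every difference below is therefore one mutant against the other. Each mutant came with its own vector and selection, and the number of transductions per mutant is not stated. An effect of the mutant thus cannot be told apart from a difference between the selected populations. Cells without a vector, with wild-type PPARγ2, or before induction were not analysed here.

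Autophagy encloses a portion of the cytoplasm in a double membrane, the autophagosome, which fuses with a lysosome where the contents are degraded. The ULK kinase complex starts the process, a lipid kinase complex marks the growing membrane, and enzymes resembling those of ubiquitin conjugation attach ATG8 proteins (the LC3 and GABARAP families) to it. Mitophagy is the selective removal of mitochondria by this route, guided by receptors in the mitochondrial outer membrane or by the kinase PINK1 and soluble adaptors that bind ubiquitin, and in beige fat it is known for clearing mitochondria when beige adipocytes return to a white-like state.

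The libraries held 5.95 to 7.50 Gb of aligned sequence in K382Q cells and 6.53 to 8.15 Gb in K382R cells, as the ratio of the deposited coverage to FPKM gives it. Adipocyte genes were abundant in all 6 libraries, with summed TPM of 9 markers from 53464 to 57120 in K382Q and from 45057 to 46263 in K382R cells. Most of that sum was *Fabp4* (46394 to 50292 TPM in K382Q and 37390 to 38541 TPM in K382R cells), and it does not speak for the list. Of the 9 markers, 2 were higher (*Fabp4* and *Cidec*), 4 lower and 3 not called, with a median log2 fold change of -0.09. Of all genes tested, 11.1% were higher and 36.9% lower, with a median of -0.14. The 4 lower markers were *Adipoq* (-1.28), *Cebpa* (-0.81), *Pparg* (-0.43) and *Lpl* (-0.19). Of these, *Lpl* was not called under median-ratio scaling, the rescaling described with the members. That scaling gave 4 markers higher (*Plin1* and *Pnpla2* in addition), 3 lower and a median of 0.07. Of all genes, 19.9% were then higher and 20.4% lower. The 9 preadipocyte and fibroblast markers summed to 570 to 615 TPM in K382Q and to 940 to 979 TPM in K382R cells. All 6 that passed the filter were lower, where 36.9% of all genes were, and *Dpp4* was at 0. Leukocyte markers were near absent (7 of 8 under 0.5 TPM, with *Adgre1* and *Cd3e* at 0), as were endothelial markers (4 of 5 under 0.5 TPM). *Pparg* itself, vector and endogenous copies together, was at 1104 to 1333 TPM in K382Q and 1590 to 1632 TPM in K382R cells. The part that the adipocyte and preadipocyte markers or the *Pparg* level play in the results below was not tested, and in bulk RNA fewer cells of a type and less RNA per cell cannot be told apart.

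Mitophagy receptors of the BNIP3 family were higher in K382Q cells, most of all *Bnip3*, while the adaptor *Sqstm1* (p62) was lower. Among the 43 genes tested, 9 were higher and 18 lower in K382Q cells at an adjusted p under 0.05 (limma with Benjamini-Hochberg adjustment over all 15426 genes), and 16 did not pass. These are 20.9% and 41.9% of the members tested, where 11.1% of all genes tested were higher and 36.9% lower by the same rule (48.1% in either direction). One member, *Bnip3*, also changed over 2-fold, where 3.88% of all genes did. The median log2 fold change (K382Q minus K382R) was -0.14 over the members and also -0.14 over all genes tested. The K382Q libraries lay entirely above the K382R libraries for 11 members and entirely below them for 22, against 14.1% and 42.8% of all genes.

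TPM gives shares of a fixed total, and the median gene was lower on this scale. Rescaling each library by the median ratio of its genes moved the median of all genes to 0.0039 and that of the members to 0.0059. The members were then 14 higher, 6 lower and 23 not called, with 19.9% of all genes higher and 20.4% lower. All 9 rises held at an adjusted p under 0.05 in each of the 16 alternative settings tried, including this one. Of the 18 falls, 6 did so (*Bcl2l13*, *Tax1bp1*, *Sqstm1*, *Rb1cc1*, *Atg2a* and *Gabarapl1*). The other 12 falls were not called under median-ratio scaling. The median of all genes moved up from -0.14 to -0.05 with FPKM, 0.0039 with median-ratio scaling and -0.0048 with quantile normalization. These settings therefore put falls at risk more than rises. The counts of calls that held do not show that rises are the more robust direction.

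**Figure D1:**
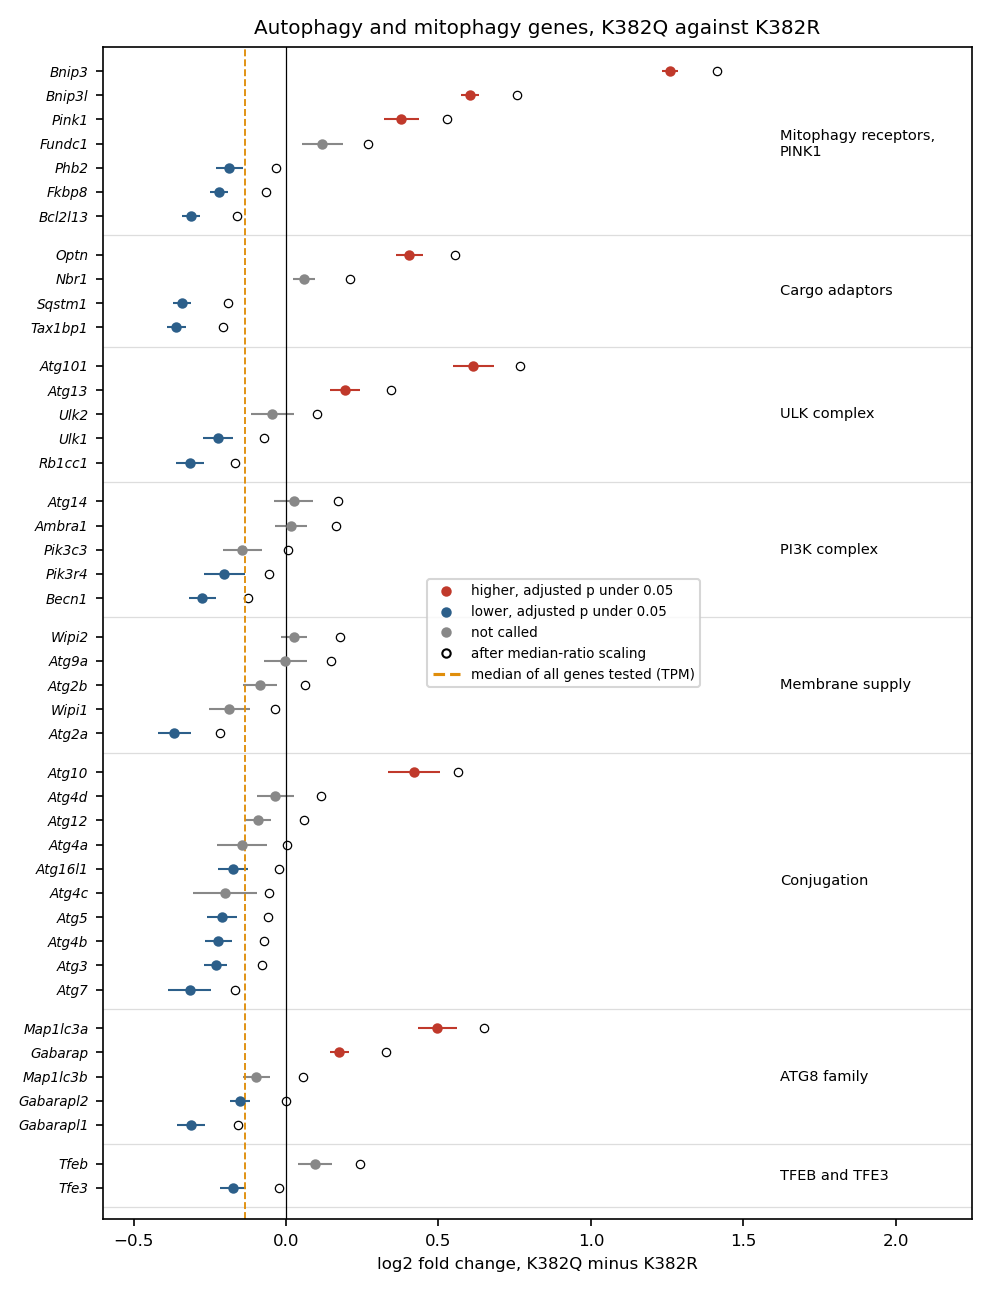
Log2 fold change of TPM (K382Q minus K382R, n = 3 each) for the 43 members tested, ordered by role, with filled points for the estimate, bars for its standard error and open circles for the value after median-ratio scaling. *Bnip3* stands alone at 1.26, the other rises reach 0.61 and the falls reach -0.37, and the dashed line is the median of all genes tested at -0.14.

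The starts of 4 genes are shown because they carry the largest rise among the receptors (*Bnip3*), the rise of the kinase (*Pink1*), the largest rise in the core machinery (*Atg101*) and the fall of the member with the highest mean over all libraries (*Sqstm1*). The 250 bases before each start are those of RefSeq (GRCm38.p6, the build of that table only), read 5′ to 3′ on the gene's strand. They lie at chr7:138909507-138909756 (minus strand), chr4:138326297-138326546 (minus), chr15:101284051-101284300 (plus) and chr11:50210821-50211070 (minus). Capitals mark ACGTG and GCGTG on either strand, the cores to which hypoxia-inducible factors bind, including the overlapping motif CACGTG, the E-box bound by TFEB, TFE3 and others.
*Bnip3*: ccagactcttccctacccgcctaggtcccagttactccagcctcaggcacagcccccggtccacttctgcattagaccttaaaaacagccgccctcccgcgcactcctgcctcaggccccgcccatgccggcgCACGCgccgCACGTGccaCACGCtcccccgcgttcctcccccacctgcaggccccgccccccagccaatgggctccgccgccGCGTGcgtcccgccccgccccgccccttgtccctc
*Pink1*: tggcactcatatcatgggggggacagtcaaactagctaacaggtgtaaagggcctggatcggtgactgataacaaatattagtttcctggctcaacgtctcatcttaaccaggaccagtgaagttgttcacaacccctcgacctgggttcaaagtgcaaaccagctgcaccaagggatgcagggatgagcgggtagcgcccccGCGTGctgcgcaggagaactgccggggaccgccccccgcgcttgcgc
*Atg101*: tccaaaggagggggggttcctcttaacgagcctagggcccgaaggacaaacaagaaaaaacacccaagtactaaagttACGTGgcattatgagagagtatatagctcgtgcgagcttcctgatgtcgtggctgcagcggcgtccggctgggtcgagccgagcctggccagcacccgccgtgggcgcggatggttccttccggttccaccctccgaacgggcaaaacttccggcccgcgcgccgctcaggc
*Sqstm1*: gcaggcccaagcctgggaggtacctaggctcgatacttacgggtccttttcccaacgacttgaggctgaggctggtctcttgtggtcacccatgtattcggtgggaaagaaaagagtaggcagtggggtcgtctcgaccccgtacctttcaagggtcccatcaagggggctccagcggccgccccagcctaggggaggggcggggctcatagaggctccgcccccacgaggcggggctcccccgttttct

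The *Bnip3* window held 5 matches of the 5-letter cores, beginning 117, 108, 107, 99 and 35 bases before the start. The pair at 108 and 107 is a single CACGTG read on both strands. As many matches were found in 1.01% of all 32851 RefSeq starts and in 2 of the 43 starts that 36 members had in the table. The other of these 2 was that of *Map1lc3b*, which was not called (log2 fold change -0.10). *Pink1* had 1 match, 47 bases before its start, *Atg101* had 1 at 172 bases, and *Sqstm1* had neither core in this window. Across the members, 15 of 43 starts held ACGTG (34.9%, against 16.6% of all starts), 26 held GCGTG (60.5% against 28.2%) and 4 held CACGTG (9.30% against 6.02%), these last belonging to *Atg3*, *Atg5*, *Atg7* and *Bnip3*. Of these 4 genes, *Bnip3* was higher and the other 3 were called lower on the TPM scale. Of all genes tested, 11.1% were higher and 36.9% lower. *Atg3*, *Atg5* and *Atg7* were not called under median-ratio scaling. The direct repeat of AGGTCA with a spacer of 1 base, to which PPARγ binds with RXR, was in none of the members' windows and in 0.0335% of all, searched as exact letters on both strands. A match that rare would hardly be met in 43 windows. Its absence therefore does not show that the members lack sites for PPARγ. The table of all starts includes non-coding genes, whose base composition differs, so these shares are descriptions. *Bnip3l*, *Calcoco2*, *Rb1cc1*, *Becn1*, *Pik3c3*, *Atg12*, *Atg16l1* and *Map1lc3a* were not in the table.

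Among the mitophagy receptors, *Bnip3* (chromosome 7, 138492565 to 138511248 of GRCm39) encodes an outer membrane protein that binds LC3 directly and whose gene is a known target of hypoxia-inducible factors. Its TPM was 748, 749 and 729 in the 3 libraries of K382Q cells and 308, 307 and 314 in those of K382R cells. The groups lay far apart and each was tight (742 ± 11.4 against 310 ± 3.62, SD, n = 3). The ratio of the means was 2.40, with a log2 fold change of 1.26 ± 0.03 (SE, limma adjusted p = 2.51e-07), and this change was larger in size than that of 98.0% of all genes tested. *Bnip3* was the second most abundant member over all libraries, after *Sqstm1*.

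*Bnip3l* (NIX; chromosome 14, 67222688 to 67246326) encodes the paralogue that removes mitochondria from maturing red cells. It was at 176, 168 and 173 TPM in K382Q cells and at 112, 114 and 113 TPM in K382R cells. These values did not overlap, and the log2 fold change was 0.60 ± 0.03 (SE, limma adjusted p = 4.45e-06). An annotated processed copy, *Bnip3l-ps*, was listed at 44.6 ± 2.98 TPM in K382Q and 27.1 ± 0.98 TPM in K382R cells (SD, n = 3), so reads may have been split between both, and their sum was 1.55-fold higher in K382Q cells. The TPM of *Bnip3* was 4.31 ± 0.14 times that of *Bnip3l* in K382Q cells and 2.74 ± 0.05 times in K382R cells (SD, n = 3).

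*Pink1* (chromosome 4, 138040720 to 138053618) encodes the kinase that accumulates on depolarised mitochondria and phosphorylates ubiquitin there. Its TPM was 41.5, 45.8 and 45.0 in K382Q and 31.6, 35.3 and 34.5 in K382R cells, without overlap (log2 fold change 0.38 ± 0.06, SE, limma adjusted p = 0.00115). The gene shares 37.4% of its exonic bases with *Ddost* on the opposite strand, and the kit and counting are not stated to keep strand. *Ddost* was lower in K382Q cells, at a mean of 144 TPM against 181 TPM.

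None of the other receptors was called higher on the TPM scale. *Fundc1*, whose product is a receptor controlled by phosphorylation in hypoxia, was at 36.2, 33.8 and 30.3 TPM in K382Q and 31.9, 30.1 and 30.0 TPM in K382R cells, and the groups overlapped. Its log2 fold change of 0.12 ± 0.07 missed the threshold (SE, limma adjusted p = 0.186), but became 0.27 with adjusted p = 0.0124 under median-ratio scaling (0.0113 to 0.461 over all alternatives). Without K382Q replicate 3 it was 0.19 and passed as well. *Bcl2l13*, a BCL2-related receptor, was at 70.7, 70.3 and 69.9 TPM in K382Q and 88.0, 86.4 and 88.0 TPM in K382R cells, with log2 fold change -0.31 ± 0.03 (SE, limma adjusted p = 9.62e-05). It was lower in every K382Q library and under every alternative, although it shares 26.2% of its exonic bases with *Bid* on the opposite strand, which was also lower (20.1 against 37.1 TPM).

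*Phb2*, an inner membrane prohibitin that is exposed when the outer membrane breaks, was at 399, 437 and 390 TPM in K382Q and 464, 471 and 459 TPM in K382R cells. *Fkbp8*, an LC3-binding immunophilin of the outer membrane, was at 198, 206 and 207 TPM in K382Q and 239, 239 and 233 TPM in K382R cells. Both groups of values lay apart, with log2 fold changes of -0.19 and -0.22 (limma adjusted p = 0.00979 and 0.000614). Neither fall was called under median-ratio scaling, where they came to -0.03 and -0.07.

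Of the 7 genes of this group, 3 were higher (42.9%, against 11.1% of all genes), 3 lower (42.9% against 36.9%) and 1 not called. The median log2 fold change was 0.12. This median is the value of *Fundc1*, and it was 0.061 without K382Q replicate 1 and 0.19 without K382Q replicate 3. Their summed TPM was 1644 to 1710 in K382Q and 1271 to 1283 in K382R cells, a ratio of 1.31. *Bnip3* made up 44.3% ± 0.50 of this sum in K382Q and 24.3% ± 0.38 in K382R cells (SD, n = 3), and *Phb2* made up 24.4% ± 1.03 and 36.4% ± 0.29. The most abundant transcript of the group was thus *Phb2* in K382R cells and *Bnip3* in K382Q cells. The share of *Pink1* was 2.48% to 2.74% in K382Q and 2.48% to 2.75% in K382R cells.

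**Figure D2:**
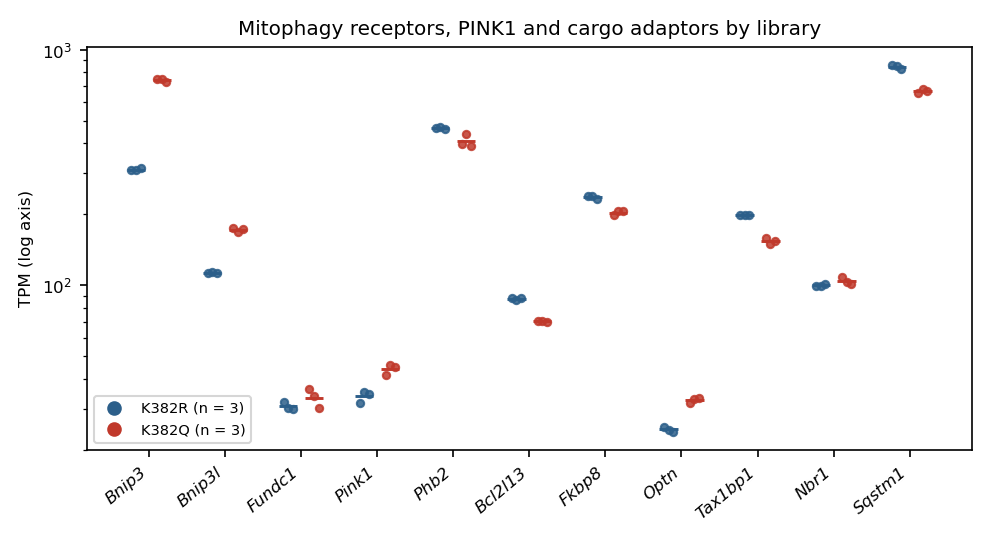
TPM (log axis) of the mitophagy receptors, *Pink1* and the 4 cargo adaptors that passed the filter, with 1 point per library (K382R blue, K382Q red, n = 3 each) and a line at each group mean. *Bnip3* moved from 310 to 742 TPM and *Sqstm1* from 844 to 666 TPM, and the 2 groups overlap for *Fundc1*.

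The soluble adaptors bind ubiquitin on a cargo and ATG8 proteins on the membrane. *Sqstm1* (p62; chromosome 11, 50090193 to 50101654), which is itself degraded by autophagy as a protein, had the highest mean TPM over all libraries of the 44 genes, although *Bnip3* was above it in K382Q cells. Its TPM was 654, 678 and 666 in K382Q and 858, 849 and 824 in K382R cells. The K382Q values were all lower, with log2 fold change -0.34 ± 0.03 (SE, limma adjusted p = 5.50e-05), which became -0.19 and was still called under median-ratio scaling. In K382Q cells *Bnip3* transcripts outnumbered those of *Sqstm1* (ratio 1.11 ± 0.03, SD, n = 3), and in K382R cells the ratio was 0.37 ± 0.01.

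*Tax1bp1*, an adaptor related to NDP52, was at 159, 150 and 154 TPM in K382Q and 199, 198 and 198 TPM in K382R cells (log2 fold change -0.36 ± 0.03, SE, limma adjusted p = 5.60e-05). *Optn*, whose product optineurin is recruited to ubiquitin-coated mitochondria, went the other way. It was at 31.6, 32.8 and 33.2 TPM in K382Q and 25.2, 24.4 and 23.9 TPM in K382R cells, with log2 fold change 0.40 ± 0.04 (SE, limma adjusted p = 0.000206). Neither gene's libraries overlapped between the groups. *Nbr1*, an adaptor that works with p62, was at 101.3 to 109 TPM in K382Q and 99.6 to 101.2 TPM in K382R cells. The ranges came close without overlapping, its log2 fold change of 0.06 was not called (limma adjusted p = 0.204), and under median-ratio scaling it was 0.21 and called. With 1 library left out it ranged from 0.031, without K382Q replicate 1, to 0.081. The adaptors summed to 957 ± 5.99 TPM in K382Q and 1167 ± 17.8 TPM in K382R cells (SD, n = 3), with no overlap. *Sqstm1* made up 69.5% ± 0.85 and 72.3% ± 0.42 of this sum (SD, n = 3), which does not speak for *Optn* and *Nbr1*.

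The 30 core genes summed to 1353 to 1396 TPM in K382Q and 1367 to 1379 TPM in K382R cells, with overlapping libraries. Of these, 5 were higher, 12 lower and 13 not called, with a median log2 fold change of -0.14, at that of all genes. The core shares were 16.7% higher and 40% lower, where 11.1% of all genes were higher and 36.9% lower. Under median-ratio scaling 7 were higher and 3 lower, where 19.9% of all genes were higher and 20.4% lower. The median was then 0.0047, so the direction of the middle gene depends on the scale. The range ran from -0.37 to 0.61, and no core gene changed over 2-fold, where 3.88% of all genes did. By median, the receptors with *Pink1* (0.12, and 0.061 to 0.19 with 1 library left out) lay above the core (-0.14). Median-ratio scaling gave 0.27 against 0.0047, but it shifts all genes nearly alike and so could not change this order. This comparison of medians over 7 and 30 genes is a description.

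The ULK complex, which receives the starting signal, was uneven. *Atg101* (chromosome 15, 101182153 to 101188826), which stabilises ATG13, was at 137, 146 and 133 TPM in K382Q and 97.6, 81.7 and 92.5 TPM in K382R cells. The groups did not overlap, with log2 fold change 0.61 ± 0.07 (SE, limma adjusted p = 0.000204). *Atg13*, the adaptor subunit of the kinase, was at 28.0 to 28.7 TPM in K382Q and 23.9 to 26.0 TPM in K382R cells (log2 fold change 0.19 ± 0.05, SE, limma adjusted p = 0.0122). It shares 32.9% of its exonic bases with *Arhgap1* on the opposite strand, whose mean TPM was 54.9 and 59.0.

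The other subunits did not share this rise. *Rb1cc1* (FIP200), the scaffold, was at 17.8, 17.1 and 17.2 TPM in K382Q and 21.2, 21.8 and 22.1 TPM in K382R cells, and was lower under every alternative (log2 fold change -0.31, limma adjusted p = 0.000986). The kinase gene *Ulk1* had log2 fold change -0.22 (limma adjusted p = 0.00673), which was lost under median-ratio scaling at -0.07. Its paralogue *Ulk2* overlapped between the groups (15.3 to 17.9 against 16.2 to 17.3 TPM) and was not called, and its value of -0.05 turned to 0.10 under that scaling. With 1 library left out it ran from -0.11 (without K382Q replicate 1) to -0.0041 (without K382Q replicate 3). The 5 genes summed to 230 ± 7.40 TPM in K382Q and 188 ± 5.93 TPM in K382R cells (SD, n = 3), and *Atg101* was the most abundant of them in both.

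The class III phosphatidylinositol 3-kinase complex makes the lipid that marks the forming membrane. Of its 5 genes, 0 were higher and 2 lower on the TPM scale, where 11.1% of all genes were higher and 36.9% lower. *Becn1* (Beclin 1) was at 66.2, 66.8 and 72.8 TPM in K382Q and 81.4, 83.0 and 84.8 TPM in K382R cells, without overlap. Its log2 fold change of -0.28 ± 0.04 (SE, limma adjusted p = 0.00145) was -0.12 and not called under median-ratio scaling. The regulatory subunit gene *Pik3r4* was at -0.20 with limma adjusted p = 0.0400, the highest adjusted p of the 18 falls. That call was lost without any one of 5 of the 6 libraries, the exception being K382R replicate 1, with adjusted p from 0.0727 to 0.125 (0.0316 to 0.603 over all alternatives). The catalytic subunit gene *Pik3c3* (-0.14) was not called, although it passed at -0.20 without K382R replicate 3. The targeting subunit gene *Atg14* (0.02) and the regulator gene *Ambra1* (0.02) were not called and their groups overlapped, with *Atg14* at 9.60 to 9.87 TPM in K382Q and 9.20 to 9.97 TPM in K382R cells. With 1 library left out *Ambra1* ran from 0.0011 (without K382R replicate 1) to 0.040 (without K382R replicate 2). Under median-ratio scaling it was at 0.16 and called (limma adjusted p = 0.0367, 0.0226 to 0.991 over all alternatives).

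Of the 5 genes that bring lipid and membrane to the growing autophagosome, 1 was lower, where 36.9% of all genes were. *Atg2a*, a lipid transfer protein gene, was at 18.7, 18.4 and 17.1 TPM in K382Q and 23.3, 24.1 and 22.8 TPM in K382R cells. The groups did not overlap, and the fall was called under every alternative (log2 fold change -0.37 ± 0.05, SE, limma adjusted p = 0.000943). Its paralogue *Atg2b* overlapped between the groups and was at -0.09, not called, with -0.12 to -0.052 when 1 library was left out. *Wipi1*, which binds the lipid mark, was at -0.19 with adjusted p = 0.0508 (limma), and passed at -0.24 without K382Q replicate 2 and at -0.23 without K382R replicate 3. *Wipi2* (0.03) and *Atg9a* (-0.0017), the gene of the transmembrane scramblase, were not called on the TPM scale. *Wipi2* was at 0.18 and called under median-ratio scaling (limma adjusted p = 0.00992, 0.00647 to 0.980 over all alternatives). *Atg9a* ranged from 30.7 to 36.9 TPM in K382Q and 32.4 to 35.6 TPM in K382R cells and shares exons with *Ankzf1* and *Gm29253*.

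Of the 10 conjugation genes, 1 was higher, 5 lower and 4 not called on the TPM scale, where 11.1% of all genes were higher and 36.9% lower. Their median was -0.19, against -0.14 for all genes. The genes of the E1-like enzyme ATG7, of the E2-like enzyme ATG3, of ATG5 and ATG16L1 in the E3-like complex and of the protease ATG4B were the 5 lower ones. *Atg7* was at 19.3, 21.1 and 19.6 TPM in K382Q and 23.0, 24.8 and 27.3 TPM in K382R cells (log2 fold change -0.32 ± 0.07, SE, limma adjusted p = 0.00752). *Atg3* was at 57.0 to 58.5 TPM in K382Q and 65.2 to 69.9 TPM in K382R cells (-0.23, limma adjusted p = 0.00159). *Atg5*, *Atg4b* and *Atg16l1* were at -0.21, -0.22 and -0.17 in log2 fold change (limma adjusted p = 0.00826, 0.00449 and 0.0182). None of the 5 was called under median-ratio scaling, where they lay between -0.17 and -0.02, and *Atg16l1* was also lost without K382Q replicate 2, K382Q replicate 3 or K382R replicate 2.

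*Atg10*, the E2-like enzyme gene that acts on ATG12, was the one that rose. It was at 11.3, 12.3 and 10.2 TPM in K382Q and 8.42, 8.63 and 7.73 TPM in K382R cells (log2 fold change 0.42 ± 0.09, SE, limma adjusted p = 0.00501). It overlaps 114 exonic bases of the abundant ribosomal gene *Rps23* on the opposite strand, which was at 1261 and 1257 TPM, so its level may hold reads of that gene. *Atg12*, the ubiquitin-like protein that is conjugated to ATG5, was at -0.09 and not called. The protease genes *Atg4a*, *Atg4c* and *Atg4d* were at -0.15, -0.20 and -0.03 and not called, with overlapping groups for *Atg4a* and *Atg4d*. With 1 library left out, *Atg4a* ranged from -0.21 to -0.07 and *Atg4c* from -0.26 to -0.10. *Atg4d* shares 30.2% of its exonic bases with *Kri1* on the opposite strand. *Atg4c*, at 7.09 to 8.18 TPM in K382Q and 8.21 to 10.4 TPM in K382R cells, did not reach the threshold although its ranges lay just apart.

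The ATG8 genes, whose products are attached to the membrane and bind the receptors, were 2 higher, 2 lower and 1 not called. Of all genes, 11.1% were higher and 36.9% lower. *Map1lc3a* (LC3A; chromosome 2, 155118217 to 155119993) was at 98.6, 118 and 103 TPM in K382Q and 72.5, 76.8 and 75.9 TPM in K382R cells (log2 fold change 0.50 ± 0.06, SE, limma adjusted p = 0.000501). *Gabarap*, the most abundant of the 5, was at 238, 252 and 244 TPM in K382Q and 216, 216 and 218 TPM in K382R cells (0.18 ± 0.03, SE, limma adjusted p = 0.00204). *Gabarapl1* went the other way, at 145, 132 and 131 TPM in K382Q and 164, 170 and 171 TPM in K382R cells (-0.31 ± 0.05, SE, limma adjusted p = 0.000964). For each of these 3 genes the groups did not overlap and the call held under every alternative.

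*Gabarapl2* was at 64.5 to 67.1 TPM in K382Q and 73.0 to 73.5 TPM in K382R cells, with log2 fold change -0.15 (limma adjusted p = 0.00568), and came to 0.0012 under median-ratio scaling. *Map1lc3b*, the gene of LC3B that is the usual marker of autophagosomes as a protein, was at 78.7 to 86.0 TPM in K382Q and 86.9 to 92.0 TPM in K382R cells without overlap, and was not called (-0.10, limma adjusted p = 0.106, and -0.12 to -0.058 with 1 library left out). The ATG8 genes summed to 636 ± 16.1 and 622 ± 4.78 TPM (SD, n = 3) with overlapping libraries, while the make-up of the sum differed. *Map1lc3a* made up 16.7% ± 1.15 of it in K382Q and 12.1% ± 0.29 in K382R cells, *Gabarap* 38.5% ± 0.40 and 34.8% ± 0.15, and *Gabarapl1* 21.4% ± 1.65 and 27.1% ± 0.47. The order of *Map1lc3a* and *Map1lc3b* differed between the mutants, with a ratio of 1.28 ± 0.08 in K382Q and 0.85 ± 0.05 in K382R cells. Shares within one sum do not depend on the scaling of the library.

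**Figure D3:**
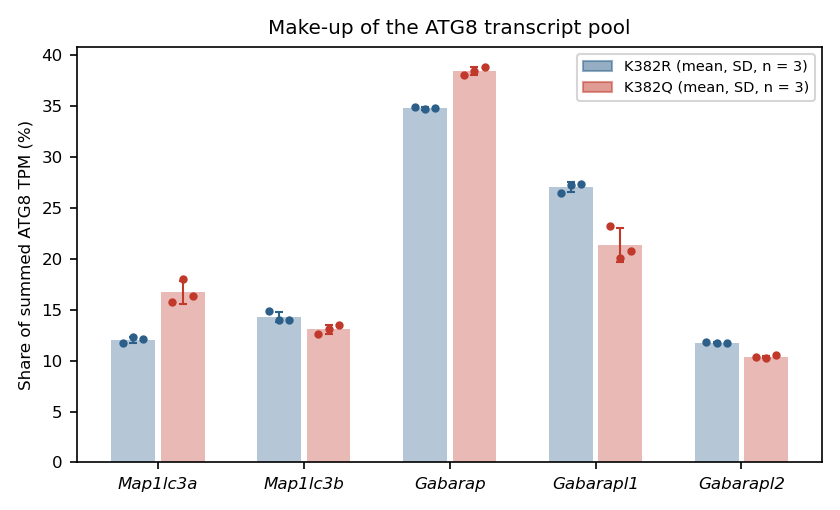
Share (%) of each ATG8 gene in the summed TPM of the 5 genes, with bars for the mean, error bars for the SD and points for the libraries (n = 3 per group). *Gabarap* and *Map1lc3a* took larger shares and *Gabarapl1* a smaller share in K382Q cells, and no gene's libraries overlap between the groups.

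The transcription factors that activate autophagy and lysosome genes were 1 lower and 1 not called, where 36.9% of all genes were lower. *Tfeb* was at 13.7, 13.3 and 13.7 TPM in K382Q and 12.2, 12.9 and 12.9 TPM in K382R cells, apart but not called (0.09 ± 0.06, SE, limma adjusted p = 0.204), and was called at 0.24 under median-ratio scaling. *Tfe3* was at 37.8 to 39.8 TPM in K382Q and 42.4 to 45.2 TPM in K382R cells (-0.17 ± 0.04, SE, limma adjusted p = 0.0114), and came to -0.02 and was not called under that scaling. The difference between the 2 genes was not tested.

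Further genes of the pathway were taken from 5 lists of 123 genes, of which 122 were found and 119 tested. Of these, 16 were higher, 57 lower and 46 not called (11.1% and 36.9% of all genes were higher and lower), with a median of -0.16. Under median-ratio scaling there were 33 higher and 26 lower and the median was -0.01. Of all genes, 19.9% were then higher and 20.4% lower. These shares of all genes are the reference for each list below. The lists hold other mitophagy regulators, fusion and late steps, other selective receptors, lysosomal genes, and the control of autophagy by mTORC1 and AMPK.

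Other mitophagy regulators were 3 higher and 11 lower of 25, with a median of -0.17 (7 higher, 4 lower and -0.02 under median-ratio scaling). *Rhot1*, which ties mitochondria to microtubule motors and is removed from damaged ones, was at 94.8 ± 2.90 TPM in K382Q and 74.0 ± 5.12 TPM in K382R cells (SD, n = 3). *Vdac1*, the outer membrane channel, was at 422 ± 8.70 and 335 ± 3.35 TPM, and their log2 fold changes were 0.36 and 0.33. The largest falls were those of *Vcp* (-0.58), the ATPase that extracts ubiquitinated proteins, and of *Usp15* (-0.36), a deubiquitinase that opposes mitophagy. *Usp15* was not called under median-ratio scaling, nor without K382Q replicate 2, K382Q replicate 3, K382R replicate 1 or K382R replicate 3.

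Lysosomal genes were the list with most falls, 4 higher and 20 lower of 30 (66.7% lower, against 36.9% of all genes). The median was -0.25. Under median-ratio scaling 6 were higher and 14 lower, where 20.4% of all genes were lower, and the median was -0.09. *Ctsb*, the protease cathepsin B, was at 272 ± 4.24 TPM in K382Q and 432 ± 1.63 TPM in K382R cells (SD, n = 3), and *Npc2*, a cholesterol carrier, at 123 ± 8.16 and 179 ± 2.77 TPM. The largest rises were those of *Ctsa* (0.44), which encodes cathepsin A, and *Lipa* (0.38), the acid lipase that frees fatty acids and cholesterol. Both falls and both rises were also called under median-ratio scaling.

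Genes of fusion and late steps were 2 higher and 12 lower of 25, with a median of -0.15 (10 higher, 3 lower and -0.0033 under median-ratio scaling, which turns the balance round). *Depp1*, a FoxO target linked to autophagy, was at 12.7 ± 2.27 TPM in K382Q cells and averaged 0.035 ± 0.061 TPM in K382R cells (SD, n = 3), so the size of its fold change depends on the pseudocount. *Trp53inp2*, which brings LC3 out of the nucleus, was higher by 0.41, and the largest falls were those of *Snap29* (-0.34), a fusion SNARE, and *Rab7* (-0.33), the late endosome GTPase. Other selective receptors were 2 higher and 4 lower of 12, with a median of -0.11, and under median-ratio scaling 5 higher and 0 lower, with the median reversed to 0.04. *Stbd1*, which binds glycogen, was at 29.3 ± 3.26 and 17.3 ± 0.51 TPM (SD, n = 3), a log2 fold change of 0.74. The ER-phagy receptor gene *Tex264* was higher by 0.17, a call that was lost without K382R replicate 2 or K382R replicate 3. The ER-phagy receptor genes *Ccpg1* and *Sec62*, both at -0.25, were not called under median-ratio scaling.

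The mTORC1 and AMPK list was 5 higher and 10 lower of 27, with a median of -0.13 (5 higher, 5 lower and 0.02 under median-ratio scaling). Its largest rises were those of inhibitors of mTOR signalling, *Ddit4* (REDD1) at 466 ± 27.9 TPM in K382Q and 235 ± 5.14 TPM in K382R cells and *Deptor* at 27.4 ± 1.27 and 17.2 ± 0.49 TPM (SD, n = 3). Its largest falls were those of *Prkaa1* (-0.54), a catalytic subunit of AMPK, and *Akt1s1* (-0.43), also an mTORC1 inhibitor. Without K382R replicate 1 the list had 3 genes higher in place of 5.

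As a reference for *Bnip3*, 14 hypoxia genes were listed, chosen with their earlier results known. Of these, 11 were higher and 2 lower (11.1% and 36.9% of all genes). Their log2 fold changes had a median of 0.88, and under median-ratio scaling 12 were higher and 2 lower, with a median of 1.03. *Ankrd37* was at 26.7 ± 2.60 and 6.04 ± 1.23 TPM and *Ndrg1* at 312 ± 25.4 and 99.5 ± 1.42 TPM in K382Q and K382R cells (SD, n = 3). The 2 lower genes were those of the oxygen-regulated factors themselves, *Hif1a* (-0.81) and *Epas1* (-0.37). *Bnip3*, at 1.26, lay above the median of this list, and the next members, *Atg101* and *Bnip3l*, were at 0.61 and 0.60. Because of how the list was chosen, its counts and median describe these genes only and are no test. Whether hypoxia-inducible factors play a part in the level of *Bnip3* was not tested.

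**Figure D4:**
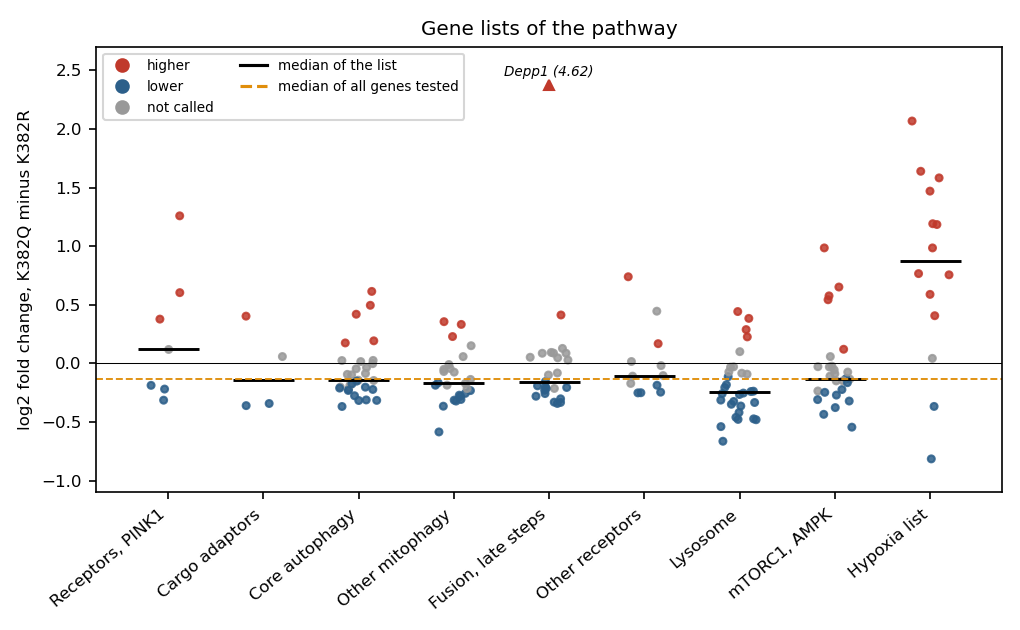
Log2 fold change (K382Q minus K382R) of each gene tested in the 3 member groups and 6 further lists, with red for higher, blue for lower and grey for not called, a black bar at each list's median and a dashed line at the median of all genes tested (-0.14). The lysosomal median is -0.25 and the hypoxia median 0.88, and *Depp1*, at 4.62 on the log2(TPM + 0.5) scale, is drawn as a triangle at the upper edge.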

How the data were processed

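RNA was sequenced from 3 K382Q and 3 K382R libraries. Per the labels and the study's methods, the authors aligned reads to GRCm39 with HISAT2 and quantified genes with StringTie. The strand setting and the annotation release are not given in the sources used here. The authors deposited TPM (scaled to a fixed total per library), FPKM (scaled to transcript length and to the aligned reads) and coverage (mean depth per base, a signal without normalization) for 56884 genes. Read counts were not analysed here.

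The mutants were compared by limma (version 3.58.1, run under R version 4.3.3) after adding 0.5 to each TPM and taking log2, with the variance trended on intensity. The fit took the 15426 genes whose TPM reached 0.5 in 3 or more libraries, and p-values were adjusted by Benjamini and Hochberg over all of them. The fold change on this scale understates the change of low genes. A call needed an adjusted p under 0.05. An exact permutation test of 3 against 3 cannot give a two-sided p below 0.1. FPKM was used as an alternative, and coverage with FPKM gave the aligned length, so precision is that of 3 replicates. Depth in reads per gene was not derived here. Exon overlaps were read from GENCODE mouse release 39. Python 3.11.15 with pandas 2.3.3 was used for the rest.

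The 44 members and all lists were chosen with earlier results of these data known. All members are named, with the 2 largest rises and 2 largest falls called in each further list among genes of mean TPM at least 5. *Ppptc7*, as spelled in these lists, was not matched, which does not show that the gene is missing from the data. *Rragb* and *Tfec* were among those below the filter. Some single genes of the lists are not reported here. The depot markers were *Hoxc9* (16.8 to 18.9 TPM in K382Q and 25.3 to 25.9 TPM in K382R cells), *Zic1* and *Meox1* (both at 0). The 16 alternatives were quantile normalization, median-ratio scaling, FPKM, array weights, a variance without trend, pseudocounts of 0.1 and 1, a minimum TPM of 1, no filter, a replicate block, and the omission of each library.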

Additional observations from a re-analysis of the deposited data

How the results depend on the processing

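The count of members higher in K382Q cells was 9, and 14 under both median-ratio scaling and quantile normalization (9 to 10 with 1 library left out). The count of lower members was 18, and 11 with FPKM, 6 with median-ratio scaling and 7 with quantile normalization (16 to 19 with 1 library left out). The median log2 fold change of the receptors with *Pink1* was 0.12, and 0.20 with FPKM, 0.27 with median-ratio scaling, 0.28 with quantile normalization, 0.090 with array weights and 0.061 to 0.19 with 1 library left out. That of the core genes was -0.14, and -0.060 with FPKM, 0.0047 with median-ratio scaling, 0.019 with quantile normalization and -0.15 to -0.12 with 1 library left out. That of the adaptors was -0.14, and -0.058 with FPKM, 0.011 with median-ratio scaling, -0.034 with quantile normalization and -0.15 to -0.13 with 1 library left out. The scalings move the centre of all genes by their construction.

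These members changed sign. Under FPKM, then median-ratio scaling, then quantile normalization, *Ulk2* came to 0.035, 0.10 and 0.12, *Atg9a* to 0.080, 0.15 and 0.16 and *Atg4d* to 0.046, 0.11 and 0.12. With median-ratio scaling and quantile normalization, *Pik3c3* came to 0.0059 and 0.020, *Atg2b* to 0.063 and 0.074, *Atg4a* to 0.0035 and 0.018, *Atg12* to 0.058 and 0.065, *Map1lc3b* to 0.055 and 0.052, and *Gabarapl2*, the one of these called as lower, to 0.0012 and 0.0097. With 1 library left out, *Atg14* ranged from -0.0039 (without K382R replicate 1) to 0.051, *Wipi2* from -0.0016 (without K382Q replicate 1) to 0.055, *Atg9a* from -0.066 to 0.064 (above 0 without K382Q replicate 3 or K382R replicate 1) and *Atg4d* from -0.070 to 0.010 (without K382R replicate 2).

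The replicate numbers share only a number, since same-numbered libraries correlated at -0.02, 0.05 and 0.02 in their deviations from the group means. With the replicate number as a block, 9 members were higher and 18 lower, 1 call was gained (*Wipi1*) and 1 lost (*Pik3r4*), and over all genes 1600 were higher and 5387 lower in place of 1717 and 5698. Limits of the data are 3 replicates of 1 cell line, no unmutated control, and transcript levels in place of protein or autophagic flux. Read counts per gene were not derived.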
